A study of Schmidtea mediterranea with 89 samples.

Results

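The U-bottom course of experiment 5 followed planarian stem cells from their isolation to day 7 in culture and held 12 of the 89 libraries of the series. Its 4 groups, with 3 libraries each, were uncultured cells and cells kept for 1, 3 or 7 days in U-bottom plates without planarian tissue extract. The rule that chose the libraries used their labels and no measured value, but it was set with earlier results of these data known. All cells are labelled SiRNeoblasts of genotype WT from the flatworm Schmidtea mediterranea, cultured in a medium with heat-inactivated serum. Flat plates without extract and U-bottom plates with extract from the same experiment, with 3 libraries each at days 1, 3 and 7, were used to ask how the same time steps looked in other cultures. Experiment 3 held a second U-bottom course without extract, with 3 libraries each of uncultured cells and of days 1 and 3, and shared no library with the first. The labels do not say how many animals or wells stood behind a library, so the p-values rest on how much these libraries differ within a group, and that difference may be technical.

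Neoblasts are the dividing adult stem cells of planarians. They renew themselves and give rise to the differentiated cell types of the worm, both in normal tissue turnover and in regeneration. SiRNeoblasts are named for a cell-permeable DNA dye used to sort living cells by their DNA content. A U-bottom well has a rounded floor on which cells settle together, whereas cells on a flat plate stay spread out. The deposited tables identify each transcript by an SMED3 identifier and pair none with a gene name, so the label could not be checked against markers of neoblasts or of other planarian cell types, and no gene role is given here. What can be described is how many identifiers moved, when, by how much and together with which others.

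Total counts lay between 3333661 and 30686937 in the 12 libraries. U-bottom day 1 replicate 1 was the shallowest, and the other 11 libraries had at least 8848652 counts. U-bottom day 7 replicate 1 stood apart from the other day 7 libraries in the spread of its counts, as described below. Identifiers were measured in CPM (counts scaled to a common library size, with effective library sizes), and 24174 passed the default expression filter of edgeR and were tested with its quasi-likelihood F test. An identifier counted as called when its Benjamini-Hochberg adjusted p was under 0.05. The adjusted p-values given for identifiers are from this edgeR test.

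The make-up of the libraries changed along the course. A few identifiers held most of the counts of cultured cells. The 4 most abundant, ranked by mean share in the 12 libraries, held 47.5%, 47.9% and 45.4% of the total count in uncultured libraries, 58.9%, 62.4% and 60.4% at day 1, 68.5%, 71.3% and 69.4% at day 3, and 65.1%, 69.5% and 70.3% at day 7. Every cultured library lay above every uncultured one, and days 3 and 7 overlapped. The mean over the 9 U-bottom libraries was 66.2% ± 4.64 (SD), against 46.9% ± 1.31 (SD) in the 3 uncultured ones, a difference of 19.3 percentage points (two-sided exact permutation test, p = 0.00455, 0.0818 after Benjamini-Hochberg adjustment over 18 tests). These shares are not corrected for transcript length.

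Detection was lowest at days 1 and 3. With every library thinned to the lowest total count, 19445, 19024 and 19416 identifiers had a count above 0 in uncultured libraries, against 15452, 14151 and 15900 at day 1, 14393, 14880 and 14438 at day 3, and 18905, 18271 and 18104 at day 7. All 6 libraries of days 1 and 3 lay below every library of day 7, and all day 7 libraries lay below every uncultured one. Day 7 exceeded day 3 by 3856 identifiers on average. With 3 libraries against 3 an exact permutation test cannot go below p = 0.1, which is the value found (0.129 adjusted). Over all 9 U-bottom libraries detection was 16055 ± 1871 (SD), against 19295 ± 235 (SD) in the 3 uncultured ones (exact permutation p = 0.00909, adjusted 0.0818).

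The remaining counts were least evenly spread at day 7. Outside the 4 most abundant identifiers, 50% of the counts were held by 585, 593 and 601 identifiers in uncultured libraries, by 578, 553 and 550 at day 1 and by 594, 550 and 558 at day 3. At day 7 it took only 238, 360 and 392 identifiers, with the lowest number in replicate 1. The U-bottom libraries together averaged 486 ± 125 (SD, n = 9) against 593 ± 8 (SD, n = 3; exact permutation p = 0.1). Without the 542 identifiers of at least 10 CPM called higher at day 7 than at day 3, which are described below and were left out after their values were seen, the day 7 numbers were 803, 582 and 586, and the means were 584 and 581. The uncultured libraries had 570, 581 and 592, so day 7 replicate 1 lay above all of them. The set was chosen for being high at day 7, so a rise of the day 7 numbers without it is built into the choice.

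**Figure D1:**
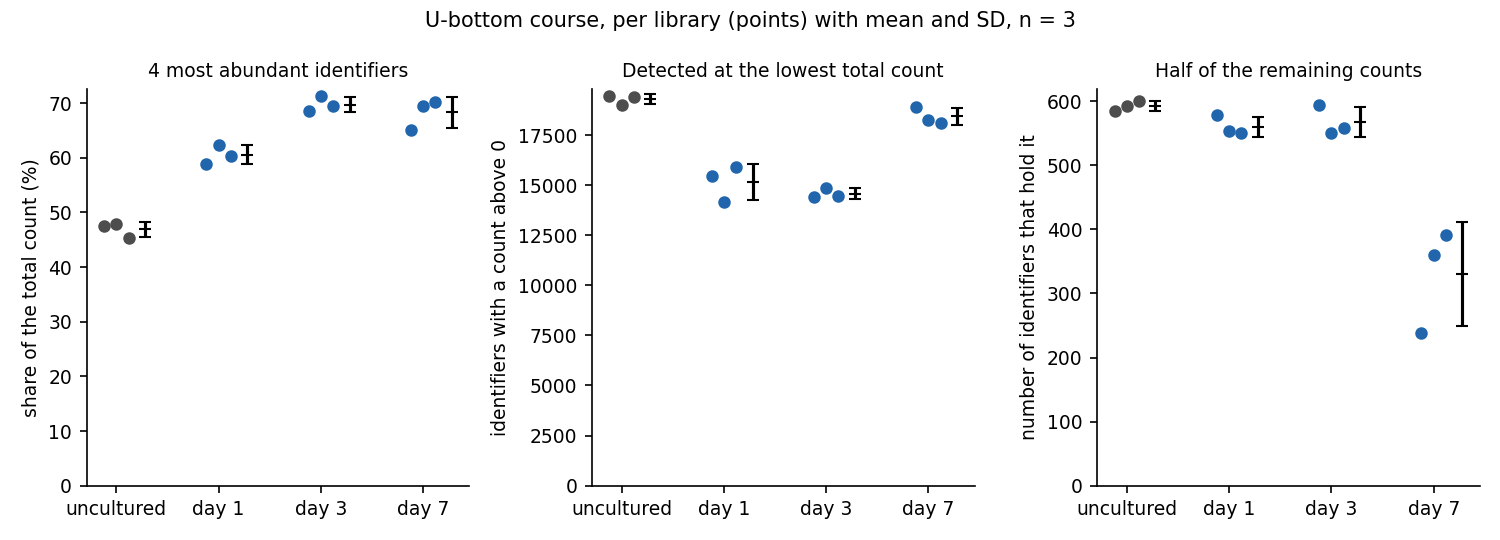
Share of the total count in the 4 most abundant identifiers (left), identifiers with a count above 0 at the lowest total count (centre) and number of identifiers that hold 50% of the remaining counts (right), for each library of the U-bottom course (points) with the mean and SD of 3 libraries. The share is higher at day 1 than in uncultured cells and higher again at day 3. Detection is lowest at days 1 and 3 and 18104 to 18905 at day 7. The identifiers that hold 50% of the remaining counts number 238 to 392 at day 7, fewer than in any library of the other groups.

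Correlation with the uncultured cells was lower at each later time point. It was measured as the Pearson correlation of log2 CPM over 5905 identifiers with a mean of at least 10 CPM over the 12 libraries. Identifiers near 0 in uncultured cells and high only at day 7 enter this set through the day 7 libraries. How much of the lower day 7 correlation comes from this choice was not tested. Each uncultured library correlated with the other uncultured ones at 0.943 to 0.965 on average. U-bottom libraries correlated with uncultured ones at 0.826 to 0.86 on day 1, 0.675 to 0.699 on day 3 and 0.231 to 0.364 on day 7. Libraries of the same day correlated at 0.896 to 0.906, 0.842 to 0.854 and 0.817 to 0.839. These correlations are across identifiers, which are not independent replicates, and are given as a description.

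The most abundant identifier, SMED30032887, took 24.6%, 25.3% and 22.2% of the counts in uncultured libraries. At day 1 its share was 38.5%, 41.1% and 38.6%, at day 3 48.4%, 50% and 41.3%, and at day 7 36%, 53.9% and 52.6%. Day 7 replicate 1 was lower than the other day 7 libraries and overlapped day 1. Against uncultured cells the change at day 7 was 1.98 on the log2 scale (adjusted p = 1.68e-10). SMED30027385, the third in abundance, changed by 1.16 (adjusted p = 0.0285), a call kept in 3 of 6 fits that each left out 1 library. SMED30027845, the second, changed by 0.59 (adjusted p = 0.253). These changes rest on effective library sizes, not on the total counts behind the shares. The scaling factors were 1.39 to 1.44 in uncultured libraries and 0.686 to 0.734 at day 7. The share of SMED30027845 was 14.5%, 18.1% and 20.7% in uncultured libraries and 18.3%, 9.96% and 11.6% at day 7. That of SMED30027385 was 8.42%, 4.46% and 2.5% in uncultured libraries and 8.17%, 4.2% and 4.78% at day 7. In bulk libraries, fewer cells of a type and less RNA per cell cannot be told apart, here or in the results that follow.

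SMED30010523 was at 563, 373 and 226 CPM in uncultured libraries, 1040, 698 and 857 CPM at day 1, 2370, 2660 and 3000 CPM at day 3, and 38100, 19800 and 17100 CPM at day 7. The 4 groups did not overlap and were ordered by time. At day 7 it had risen by 6.01 on the log2 scale (SE 0.44, adjusted p = 5.36e-12) and made up 2.61%, 1.4% and 1.26% of all counts. The second U-bottom course, which ended at day 3, had no such order, with 276, 291 and 271 CPM in uncultured libraries, 221, 250 and 521 CPM at day 1 and 302, 578 and 269 CPM at day 3.

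The number of identifiers called against uncultured cells grew from day to day. At day 1 there were 217, which is 0.898% of those tested, with 152 higher (0.629%) and 65 lower (0.269%). At day 3 there were 913 (3.78%), with 639 higher (2.64%) and 274 lower (1.13%). By day 7 there were 2906 (12%), with 1862 higher (7.7%) and 1044 lower (4.32%). Any difference among the 4 groups was called for 3462 identifiers (14.3%), or 2245 without U-bottom day 7 replicate 1. The 3 comparisons share their uncultured libraries.

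Higher calls outnumbered lower ones mainly among scarce identifiers. Among identifiers with a mean of at least 10 CPM over the compared groups, the calls were 82 higher and 62 lower of 5743 at day 1, 316 and 199 of 5784 at day 3, and 830 and 885 of 6118 at day 7. The median log2 fold change of the higher calls was 2.19 at day 1, 2.94 at day 3 and 5.72 at day 7, and that of the lower calls was -1.89, -2.64 and -1.96. The median over all identifiers tested was -0.17, -0.16 and 0.15.

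**Figure D2:**
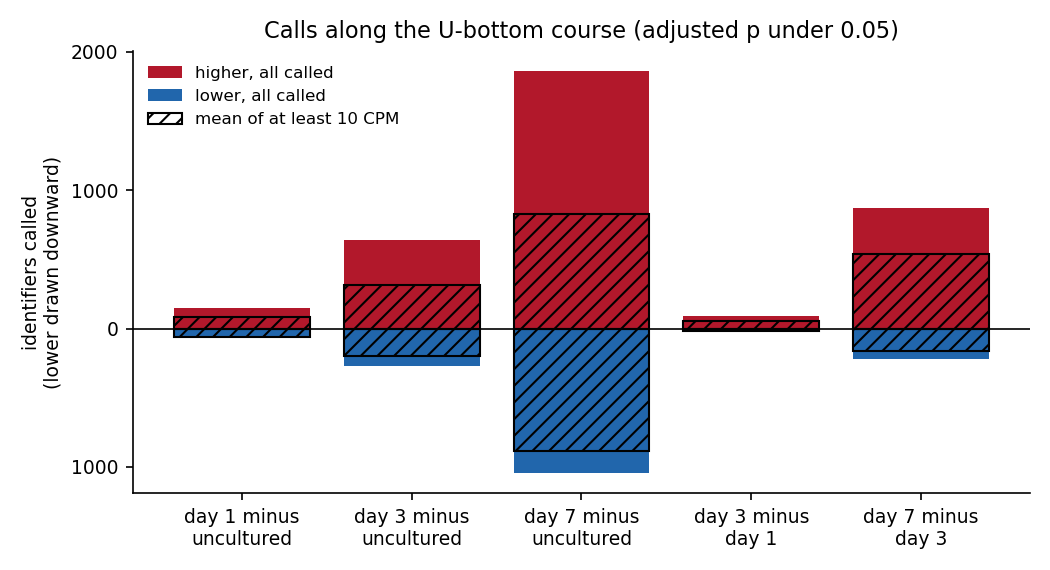
Identifiers called (adjusted p under 0.05) in the 5 comparisons of the U-bottom course, higher upward and lower downward, with the calls of at least 10 CPM hatched. Day 7 against uncultured cells had 2906 calls and day 3 against day 1 had 114.

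Day 1 already held large, repeatable falls. SMED30029780 was at 719, 1050 and 1100 CPM in uncultured libraries and at 30.8, 36.2 and 47.2 CPM after 1 day. It stayed low, at 43.5, 33.4 and 36.9 CPM on day 3 and 23.3, 37.8 and 23.4 CPM on day 7, so that every cultured library was below every uncultured one. The log2 fold change at day 1 was -4.64 (SE 0.32, adjusted p = 1.76e-11), and in experiment 3 it was -5.05. SMED30009224 had the same course. It went from 282, 410 and 372 CPM to 30.5, 18.7 and 31.6 CPM on day 1 (log2 fold change -3.72, SE 0.39, adjusted p = 2.54e-07; -4.35 in experiment 3).

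Among the identifiers called higher on day 1 with a mean of at least 10 CPM over both groups, SMED30023699 was named first. From 0.822, 0.835 and 1.13 CPM it went to 7.56, 45.2 and 16.9 CPM, then to 115, 47.5 and 27.6 CPM on day 3 and 77.5, 46.7 and 38.1 CPM on day 7. No cultured library overlapped the uncultured ones, but the replicates of a day differed widely. The log2 fold change was 4.65 at day 1 (SE 0.71, adjusted p = 0.0002) and 6.07 at day 3 (SE 0.76, adjusted p = 1.14e-06). In experiment 3 it was 3.09 at day 1 (adjusted p = 8.32e-05) and 1.02 at day 3 (adjusted p = 0.143). SMED30017762 rose from 3.11, 1.8 and 0.516 CPM to 16.9, 18.3 and 31.9 CPM on day 1 (log2 fold change 3.65, SE 0.50, adjusted p = 3.48e-05; 2.50 in experiment 3, adjusted p = 8.9e-09). It was still at 26.6, 39.5 and 24.7 CPM on day 7.

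The day 1 count rested on few libraries. It was 95 without uncultured replicate 2, 61 without uncultured replicate 3 and 105 without U-bottom day 1 replicate 1, the shallow library. Fitted with the compared groups alone it was 982, with 287 higher and 695 lower, and DESeq2 called 694, with 323 higher and 371 lower, so the larger number of higher calls at day 1 depends on the test.

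At day 3 some identifiers had no count left. SMED30034503 went from 15.2, 37.8 and 30 CPM in uncultured libraries to 8.07, 10.8 and 6.78 CPM on day 1 and to 0 in all 3 libraries of day 3, which is at least 602-fold lower when the group is given 3 counts in all as its floor (adjusted p = 0.0102). On day 7 it was at 0.193, 0 and 0 CPM. In experiment 3 it also had 0 counts at day 3. SMED30018825 went from 15.7, 33.9 and 23.5 CPM to 2.77, 9.45 and 0 CPM on day 1 and to 0 at day 3, at least 530-fold lower (adjusted p = 0.00185).

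SMED30027627 rose by day 1 (log2 fold change 5.32, adjusted p = 2.45e-06) and by day 3. It was at 0.519, 0.134 and 0.0469 CPM in uncultured libraries, 4.79, 10.4 and 9.82 CPM on day 1, 17.3, 26.4 and 24.1 CPM on day 3 and 196, 98.1 and 86.1 CPM on day 7. The 4 groups did not overlap and were ordered by time. Its log2 fold change at day 3 was 6.72 (SE 0.65, adjusted p = 2.04e-08), against 2.06 in experiment 3 (adjusted p = 0.00375).

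The day 3 count was 579 without uncultured replicate 2 and 544 without uncultured replicate 3. Its split also depended on the test, with 702 higher and 1518 lower when only the compared groups were fitted and 1085 higher and 1006 lower by DESeq2.

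Calls between day 1 and day 3 were few, and only some other measures set the days apart. At an unadjusted p under 0.05 in the edgeR test, 2972 identifiers passed at this step and 2506 between uncultured cells and day 1. Some identifiers pass this level by chance alone. Mean correlation with uncultured libraries was 0.826 to 0.86 at day 1 and 0.675 to 0.699 at day 3. The share of the most abundant identifiers averaged 60.5% at day 1 and 69.8% at day 3, without overlap (exact permutation p = 0.1). Detection overlapped, with means of 15168 and 14570 (exact permutation p = 0.4). The number of identifiers holding 50% of the remaining counts also overlapped, with means of 560 and 567 (exact permutation p = 0.7). Of the identifiers tested, 114 (0.472%) were called, 91 higher (0.376%) and 23 lower (0.0951%) at day 3. This balance was not stable: without the day 7 libraries in the fit the 116 calls were 49 higher and 67 lower. Leaving out single libraries brought the count to 74, 16 and 30 (U-bottom day 1 replicates 1, 2 and 3) and to 44 and 36 (U-bottom day 3 replicates 2 and 3). Only 5 identifiers of at least 10 CPM whose groups did not overlap kept their call whichever library was left out, 2 of them higher and 3 lower.

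SMED30011818 was the first of these. It was at 49.6, 60.6 and 70 CPM in uncultured libraries, 184, 188 and 172 CPM on day 1, 404, 450 and 509 CPM on day 3 and 372, 385 and 483 CPM on day 7. The step from day 1 to day 3 was 1.32 on the log2 scale (SE 0.21, adjusted p = 0.00155), and 0.78 in experiment 3 (adjusted p = 0.00599). The second was SMED30031757, whose levels were 113, 112 and 119 CPM in uncultured libraries, 125, 140 and 139 CPM on day 1, 304, 296 and 259 CPM on day 3 and 246, 275 and 208 CPM on day 7 (log2 fold change of the step 1.09, SE 0.20, adjusted p = 0.00755; 0.83 in experiment 3, adjusted p = 0.000939).

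Among the lower ones, SMED30031625 was at 144, 132 and 147 CPM in uncultured libraries, 25.2, 40.1 and 21.4 CPM on day 1 and 1.19, 2.93 and 4.56 CPM on day 3. At day 7 it stood at 14.4, 3.07 and 9.4 CPM, overlapping day 3. The step to day 3 was -3.32 (SE 0.56, adjusted p = 0.00384), and -2.16 in experiment 3 (adjusted p = 3.77e-07). SMED30035215 went from 35.5, 8.53 and 24 CPM on day 1 to 0.099, 1.2 and 0.671 CPM on day 3 (log2 fold change -5.07, SE 0.82, adjusted p = 0.00226), after 48.4, 67.6 and 73.6 CPM in uncultured libraries. In experiment 3 its step was -1.43 (adjusted p = 0.135).

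Few identifiers were called where day 1 was set against uncultured cells and day 3 together. The contrast of day 1 with the mean of uncultured cells and day 3 called 12 (0.0496%), 8 higher (0.0331%) and 4 lower (0.0165%). None of those whose groups did not overlap kept its call without each library. A change that was complete by day 1 and lasted also moves this contrast, so it does not isolate day 1. The 4 lower calls include SMED30029780 (adjusted p = 1.51e-05) and SMED30009224 (adjusted p = 0.00453), which were still low on day 3. SMED30024189 was at 304, 276 and 299 CPM in uncultured libraries, 1220, 488 and 483 CPM on day 1, 359, 314 and 324 CPM on day 3 and 259, 306 and 314 CPM on day 7. The log2 contrast was 1.23 (SE 0.22, adjusted p = 0.0115) and fell to 0.63 (adjusted p = 0.748) without day 1 replicate 1, the shallow library, which held the highest value. SMED30000843 dipped at day 1, with 646, 810 and 782 CPM in uncultured libraries, 369, 375 and 324 CPM on day 1, 618, 561 and 547 CPM on day 3 and 512, 602 and 801 CPM on day 7 (log2 contrast -0.88, SE 0.17, adjusted p = 0.0256). Its call was lost in 6 of 9 fits without 1 library. The count of 12 was 5, 6 and 5 without day 1 replicate 1, 2 or 3 and 7 without U-bottom day 3 replicate 1.

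**Figure D3:**
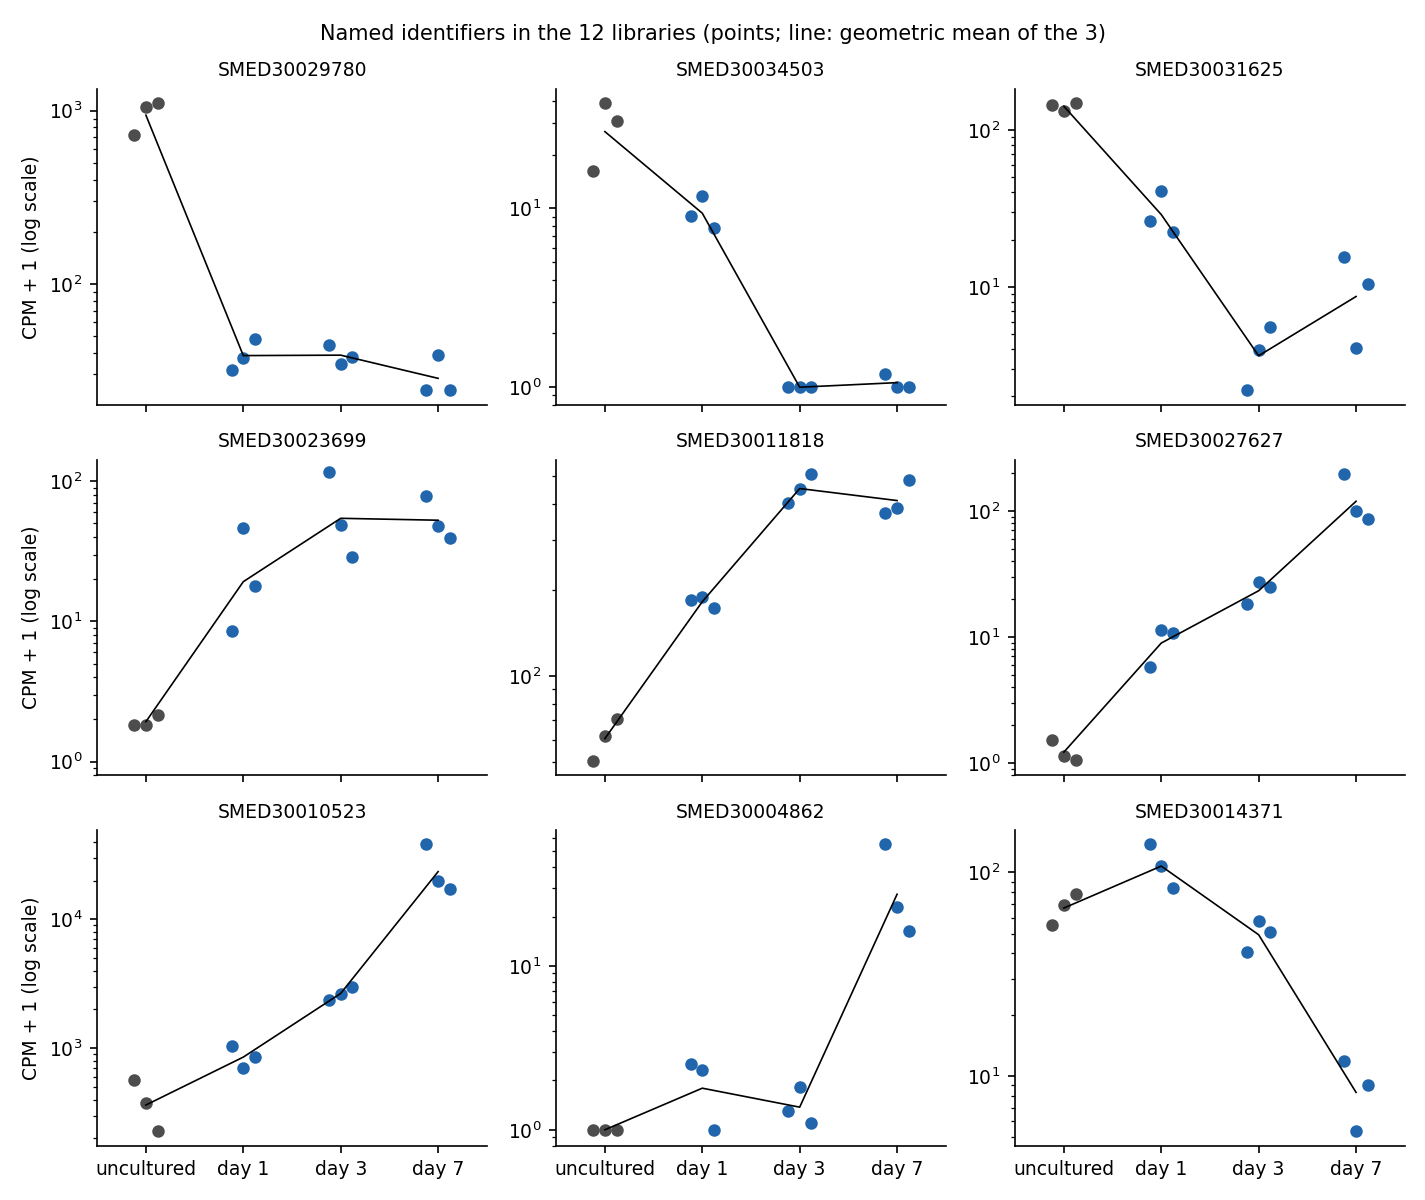
CPM plus 1 on a log axis for 9 identifiers in the 12 libraries of the U-bottom course, with a line through the geometric mean of the 3 libraries of each group. SMED30029780 fell at day 1 and stayed between 23.3 and 47.2 CPM, SMED30011818 reached its level at day 3, and SMED30010523 and SMED30004862 were highest in the 3 day 7 libraries.

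The step from day 3 to day 7 called more identifiers than the step from day 1 to day 3, which spans less time. It called 1089 identifiers (4.5%), 871 higher (3.6%) and 218 lower (0.902%). Of these, 542 higher and 165 lower had a mean of at least 10 CPM, of 5831 such identifiers. The count was 622 without U-bottom day 7 replicate 1 and 677 without U-bottom day 3 replicate 1, with more higher than lower calls in both. RLE size factors, another scaling, moved the median log2 change of all identifiers at this step by 0.14 from its 0.38, and called 1208, 1062 of them higher.

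Named rises at this step started near 0. SMED30025919 was at 0.0433, 0.568 and 0.164 CPM in uncultured libraries, 0.252, 0.042 and 0.0742 CPM on day 1 and 0.644, 0.0413 and 0.336 CPM on day 3, and reached 34.3, 15.5 and 12.6 CPM on day 7 (log2 fold change of the step 5.93, SE 1.14, adjusted p = 0.000811). SMED30012991 went from 1.04, 0 and 1.92 CPM on day 3 to 49.3, 24 and 22.5 CPM on day 7 (log2 fold change 5.02, SE 1.15, adjusted p = 0.00587). In each of them replicate 1 held the highest day 7 value.

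Among the falls, SMED30014371 was at 53.9, 68.1 and 77.5 CPM in uncultured libraries, 136, 107 and 82.5 CPM on day 1, 39.7, 57 and 50 CPM on day 3 and 10.9, 4.35 and 8.01 CPM on day 7 (log2 fold change of the step -2.66, SE 0.39, adjusted p = 1.6e-05). SMED30008750 held at 34.5, 31.5 and 27.6 CPM on day 1 and 31.7, 37 and 32.6 CPM on day 3 and was at 1.64, 11.2 and 3.7 CPM on day 7 (log2 fold change -2.60, SE 0.50, adjusted p = 0.000856).

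Against uncultured cells, the 4 identifiers described next for day 7 went from 0 counts or to almost none. SMED30004862 had 0 counts in all 3 uncultured libraries, 1.51, 1.3 and 0 CPM on day 1, 0.297, 0.826 and 0.0959 CPM on day 3 and 54.1, 21.8 and 15.3 CPM on day 7, at least 969-fold higher than the floor of 3 counts over the uncultured group (adjusted p = 0.000169). SMED30033677, also at 0 counts in uncultured libraries, was at 24.2, 9.35 and 32.1 CPM on day 7, at least 698-fold higher (adjusted p = 0.000166). In the uncultured libraries of experiment 3 neither was at 0. SMED30004862 was at 0.386, 0.377 and 0.588 CPM there, and SMED30033677 at 0.657, 0.0753 and 0.206 CPM. These levels lie above the floor of 0.0314 CPM behind the 2 folds. The named falls were SMED30027888, from 17.3, 22.2 and 21.6 CPM to 0.193, 0 and 0 CPM (adjusted p = 0.004), and SMED30004487, from 36, 28.7 and 24.7 CPM to 0, 0.285 and 0 CPM (adjusted p = 0.00241). Only 2 counts of SMED30027888 and 4 of SMED30004487 were left at day 7. From the summed counts they were 320.1-fold (95% exact interval 88.5 to 2645.3) and 221.5-fold (86.4 to 813.6) lower, intervals that cover counting error only. SMED30004487 was still at 21.9, 10.3 and 13.1 CPM on day 1. The day 7 count of 2906 was 1812 without uncultured replicate 2 and 1764 without uncultured replicate 3, and 1986 without U-bottom day 7 replicate 1.

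Counted over all identifiers, those with 0 counts in the uncultured libraries of experiment 5 appeared late. At day 1, 0 identifiers went from 0 counts in all uncultured libraries to at least 1 CPM in all 3 libraries of the day. At day 3 there were 3, and at day 7 there were 166, of which 147 were called and 133 had some count at day 3. At least 1 CPM in all libraries of the day was reached by 9653 identifiers at day 1, 9057 at day 3 and 10721 at day 7. Over all identifiers tested, 7.7% were called higher at day 7. In the other direction, 11483 identifiers had at least 1 CPM in every uncultured library. Of these, 103 had 0 counts in all day 1 libraries, 245 at day 3 and 164 at day 7, of which 1, 45 and 44 were called. Over all identifiers tested, 0.269%, 1.13% and 4.32% were called lower. Depth differed: the floor of 3 counts per group was 0.0314 CPM in uncultured cells and 0.0548, 0.046 and 0.0972 CPM at days 1, 3 and 7. A 0 was thus easiest to reach at day 7. Among the 3462 identifiers with any called difference, the highest group mean was in uncultured cells for 736 (21.3%), at day 1 for 173 (5%), at day 3 for 161 (4.65%) and at day 7 for 2392 (69.1%). Among the 1386 of these with at least 10 CPM, uncultured cells held the highest mean for 555 (40%) and day 7 for 534 (38.5%).

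The 542 identifiers of at least 10 CPM that were higher at day 7 than at day 3 had changes of similar size. This set was singled out after its values were seen, and its values in the U-bottom libraries of days 3 and 7 are those that chose it. The middle 50% of its log2 changes lay between 2.74 and 3.40, with a median of 3.07. Together they took 0.601%, 0.422% and 0.32% of the total count in uncultured libraries, 0.967%, 0.611% and 0.679% at day 1, 1.52%, 1.52% and 1.78% at day 3 and 17.4%, 9.63% and 8.62% at day 7. Outside the 4 most abundant identifiers the set made up 42.3%, 27% and 24.8% of the counts at day 7. Day 7 replicate 1 held the largest share.

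The day 7 libraries differed in their level of this set by similar ratios across its members. The call that chose the set used these libraries and favours low scatter within a group. How much of the similarity comes from this choice was not tested. The ratio of CPM in day 7 replicate 1 to that in replicate 2 had a median of 1.82 over the set, with quartiles of 1.54 and 2.11. Over the other 5510 identifiers of at least 10 CPM the median was 0.874, with quartiles of 0.596 and 1.3. Replicate 1 against replicate 3 gave 2.01 (quartiles 1.66 and 2.42) for the set and 0.909 (0.617 and 1.35) for the rest, and replicate 2 against replicate 3 gave 1.11 (0.929 and 1.33) and 1.03 (0.731 and 1.41). SMED30010523, the abundant identifier above, belongs to the set. What the 542 have in common beyond their levels could not be read from identifiers without names.

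Libraries that did not choose the set also held more of it at day 7. On flat plates the set took 0.499% to 0.75% of the total count at day 1, 0.94% to 1.48% at day 3 and 6.77% to 9.66% at day 7. In U-bottom plates with extract it took 1.8% to 7.06% at day 1, 3.5% to 4.54% at day 3 and 18% to 21.8% at day 7, above every flat library and every U-bottom library without extract of day 7. The day 3 and day 7 libraries did not overlap in either culture. Of the 542, 431 were called higher at day 7 than at day 3 on flat plates (79.5%, against 2.64% of all identifiers tested) and 519 with extract (95.8%, against 6.2% of all), with 0 and 1 called lower. Among identifiers with a mean of at least 10 CPM over the compared groups, 356 of 5696 were higher on flat plates and 1098 of 6157 with extract. All these libraries shared 1 fit, with its filter and estimate of the spread, with the U-bottom libraries. The median log2 change was 2.71 on flat plates and 3.77 with extract. Experiment 3 had no day 7 libraries, and its U-bottom libraries held 0.295% to 0.676% at day 1 and 0.283% to 0.803% at day 3, overlapping its uncultured libraries at 0.53% to 0.548%. Outside the 4 most abundant identifiers, however, the set took 1.28% to 2.56% at day 3 there, above the 1.02% to 1.13% of uncultured libraries. Of its 530 members tested in experiment 3, 185 were called higher and 15 lower at day 3, with a median log2 fold change of 0.78 against -0.03 over all.

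**Figure D4:**
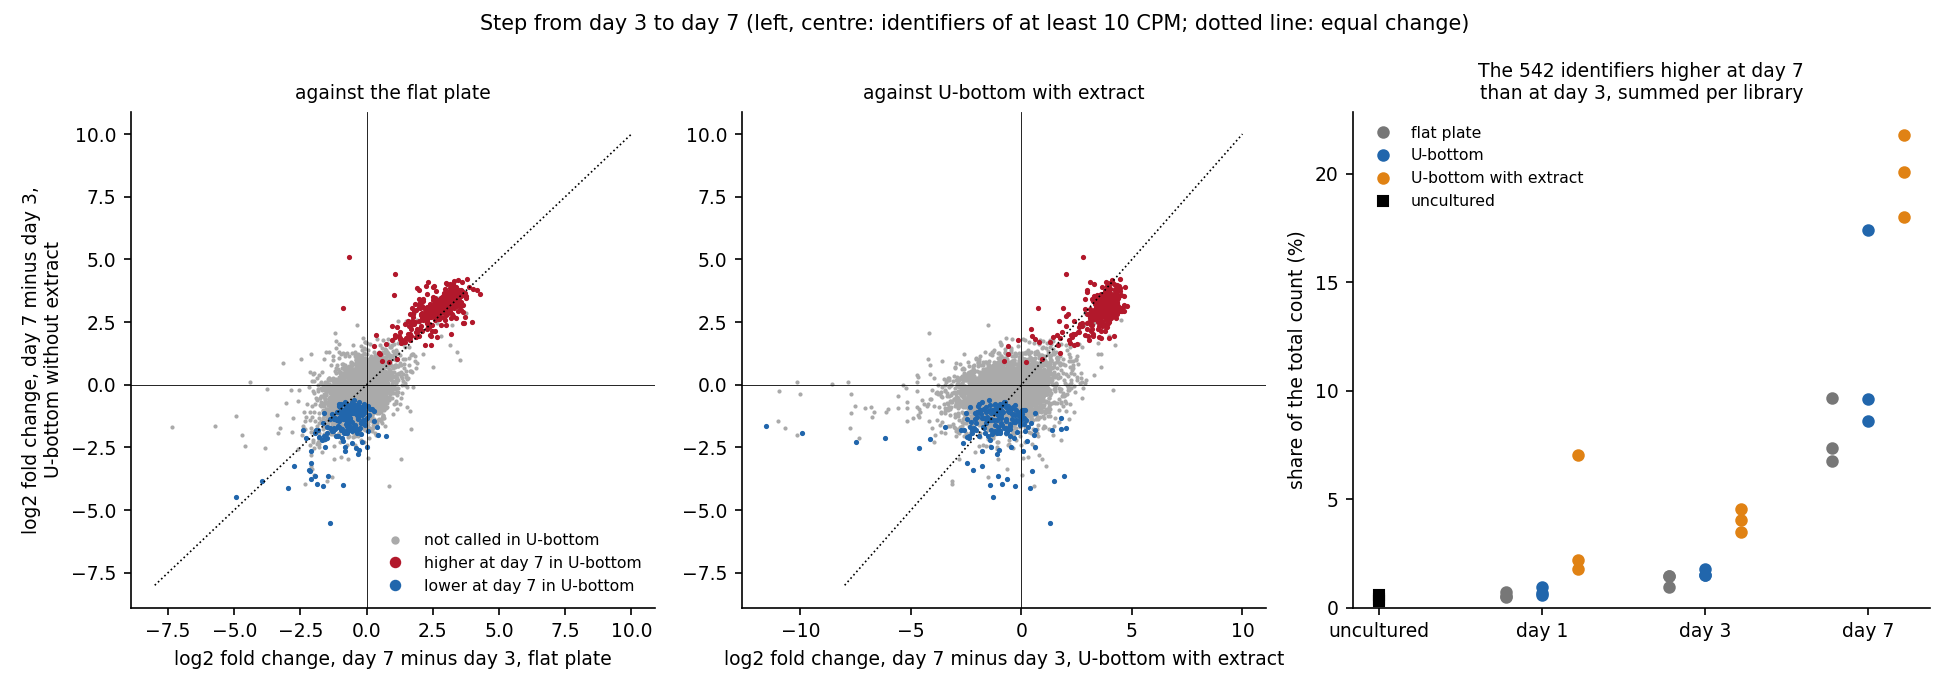
Log2 fold change from day 3 to day 7 in U-bottom plates without extract against the same step on flat plates (left) and in U-bottom plates with extract (centre), for identifiers with a mean of at least 10 CPM in the U-bottom course, and the summed share of the total count of the 542 identifiers higher at day 7 in each library of experiment 5 (right). Red points are called higher and blue points lower at day 7 in U-bottom plates. The red cloud sits apart from the rest in both plots, and the share is highest with extract at day 7, at 18% to 21.8%.

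The same step on flat plates, in other libraries, shared most of its rises with the U-bottom step. Of the 871 higher calls in U-bottom plates, 474 were also called higher at this step on flat plates, which is 54.4% of the U-bottom list and 74.3% of the 638 higher calls of the flat step (2.64% of those tested). Of the 218 lower calls 34 were also lower on flat plates, 15.6% of them and 34.7% of the 98 lower flat calls (0.405% of those tested), and 2 were higher. Over 5905 identifiers of at least 10 CPM the 2 steps had a Pearson correlation of 0.774 (Spearman 0.512), a description across identifiers of separate libraries. Over all 24174 tested it was 0.326 (Spearman 0.408). The 5905 were chosen by their mean in the U-bottom course, which includes its day 7 values. The test of the difference itself called 4 identifiers (0.0165%), against 240 by DESeq2 and 2143 with an unadjusted p under 0.05.

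Those 4 were SMED30010755, SMED30016911, SMED30020130 and SMED30019856, named because they are all there were. In each of them at least 1 of the 4 groups had 0 counts in all its libraries, so that no fold is given. SMED30016911 was at 0 counts on day 3 and at 30.3, 9.42 and 4.01 CPM on day 7 in U-bottom plates, against 11, 6.36 and 10.3 CPM on day 3 and 7.75, 1.9 and 4.85 CPM on day 7 on flat plates (adjusted p = 0.00327). It was also the 1 call (0.00414%; 2016 at an unadjusted p under 0.05, 267 by DESeq2) where the steps from day 1 to day 3 differed (adjusted p = 0.00617). SMED30020130 was at 12.8, 4.21 and 1.39 CPM on day 3 and 0 counts on day 7 in U-bottom plates, against 0 counts and 1.78, 0.136 and 1.02 CPM on flat plates (adjusted p = 0.0361). The count of 4 was 1 without U-bottom day 7 replicate 1 or 2, and 2 without U-bottom day 7 replicate 3, flat day 3 replicate 1 or 2, or flat day 7 replicate 2 or 3. For the earlier step the count was 0 without U-bottom day 1 replicate 3, 2, 3 and 4 without flat day 3 replicate 1, 2 or 3, and 2 without U-bottom day 3 replicate 2.

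With extract the later step shared its rises and differed elsewhere. Of the 871 higher calls, 645 were also higher with extract, 74.1% of the list and 43.1% of the 1498 higher calls of the extract step (6.2% of those tested), and of the 218 lower calls 106 were lower, 48.6% of the list and 5.14% of the 2063 lower calls with extract (8.53% of those tested). The difference between the steps was called for 462 identifiers (1.91%), 404 (1.67%) with a more positive step without extract and 58 (0.24%) with a more negative one. Over the 404, chosen by this test, the step had a median log2 change of 0.05 without extract and -2.52 with extract, where 379 were called lower, against 11 without it. With RLE size factors, another scaling, the count was 252, with 147 and 105. It was 255, 248 and 242 without U-bottom day 3 replicate 1, 2 or 3, 272 and 296 without U-bottom day 7 replicate 2 or 3, 263 and 269 without extract day 3 replicate 1 or 2, and 848 without extract day 7 replicate 3.

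The earlier step differed from that with extract for 5 identifiers (0.0207%; 2262 at an unadjusted p under 0.05, 279 by DESeq2). SMED30006533 was at 68.8, 40.8 and 103 CPM on day 1 and 134, 107 and 113 CPM on day 3 without extract, and at 25.1, 30.4 and 27 CPM and 171, 160 and 197 CPM with it (log2 difference of the steps -1.94, adjusted p = 0.032). SMED30026267 was at 125, 67.2 and 77.6 CPM and 78.6, 118 and 84.2 CPM without extract, and 61.9, 38.7 and 49.5 CPM and 256, 219 and 264 CPM with it (-2.24, adjusted p = 0.0433). SMED30008091 was at 14.9, 18.8 and 18.1 CPM and 11, 6.28 and 13 CPM without extract, and 23.1, 15.3 and 20.2 CPM and 99.5, 101 and 125 CPM with it (-3.25, adjusted p = 0.0288). In all 3 the day 3 libraries with extract lay above every library of the U-bottom course without it at days 1 and 3. The other calls were SMED30023542 (7.17, adjusted p = 0.045) and SMED30035290, which had 0 counts at day 3 without extract. No call was left without U-bottom day 3 replicate 1 or extract day 1 replicate 2. There was 1 without U-bottom day 1 replicate 3, extract day 1 replicate 3, or extract day 3 replicate 1 or 2, there were 2 without extract day 3 replicate 3, and there were 3 without U-bottom day 3 replicate 2 or 3.

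Early identifiers went different ways at the late step, a comparison between libraries that are not shared. Of the 152 identifiers higher at day 1 than in uncultured cells, 85 (55.9%) were called higher again at day 7 against day 3, where 3.6% of all were, and 1 was lower. Their median log2 change from day 3 to day 7 was 2.90, against 0.38 over all identifiers. Of the 65 that were lower at day 1, 10 (15.4%) were lower again, where 0.902% of all were, and 1 was higher, with a median of -0.33. The shares over all identifiers are not a matched background. Of the 152, 82 had at least 10 CPM over uncultured cells and day 1, and scarcer ones could pass the filter through libraries where they were higher, such as day 7. Both comparisons also shared 1 fit and its estimate of the spread. Of 5831 identifiers of at least 10 CPM at the late step, 542 were called higher.

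The second U-bottom course, in experiment 3, gave a check on libraries that the first did not use. Its table holds estimated counts, and it was fitted apart, with 20949 identifiers tested. It called 4907 identifiers (23.4%) at day 1, 2273 higher (10.9%) and 2634 lower (12.6%), 6962 (33.2%) at day 3, 3105 higher (14.8%) and 3857 lower (18.4%), and 901 (4.3%) between days 1 and 3, 370 higher (1.77%) and 531 lower (2.53%). The step count was 421 without U-bottom day 1 replicate 1 of that experiment.

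Lists from experiment 5 were followed in experiment 3. Of the 65 identifiers lower at day 1 in experiment 5, 60 (92.3%) were called lower in experiment 3, where 13.2% of the 19362 identifiers tested in both were, and all 65 changed in that direction. Of 145 higher ones tested in both, 68 (46.9%) were called higher, against 11.5% of all, and 124 changed in that direction. At day 3, 240 of 274 lower ones (87.6%) were lower in experiment 3, against 19.2% of all, and 262 changed in that direction, and 306 of 596 higher ones (51.3%) were higher, against 15.3%, with 1 lower and 531 changed in the higher direction. As shares of the experiment 3 lists these are 2.34% of the lower list at day 1 and 6.45% at day 3. For the step from day 1 to day 3, 12 of 23 lower ones (52.2%) were lower again, against 2.74% of all, and 9 of 89 higher ones (10.1%) were higher, against 1.89%. In that step 20 of the 23 and 78 of the 89 changed in the direction of their list. The difference between higher and lower lists was not tested.

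Lists taken from experiment 3 could be followed to day 7. The 3719 identifiers that were lower at day 3 there had median log2 fold changes of -0.95, -1.21 and -1.41 at days 1, 3 and 7 of the experiment 5 course, against -0.17, -0.20 and -0.08 over all 19362. Of them 62 (1.67%), 240 (6.45%) and 722 (19.4%) were called lower, against 0.336%, 1.42% and 5.39% of all, and 0, 1 and 33 were called higher. The 2968 that were higher there had medians of 0.46, 0.58 and 0.66, with 94 (3.17%), 306 (10.3%) and 496 (16.7%) called higher, against 0.749%, 3.08% and 7.5% of all, and 0, 0 and 16 called lower. From day 3 to day 7 their medians were -0.21 and 0.11, against 0.12 over all. The 3 comparisons share their uncultured libraries, so the medians are set side by side and not compared by a test.

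**Figure D5:**
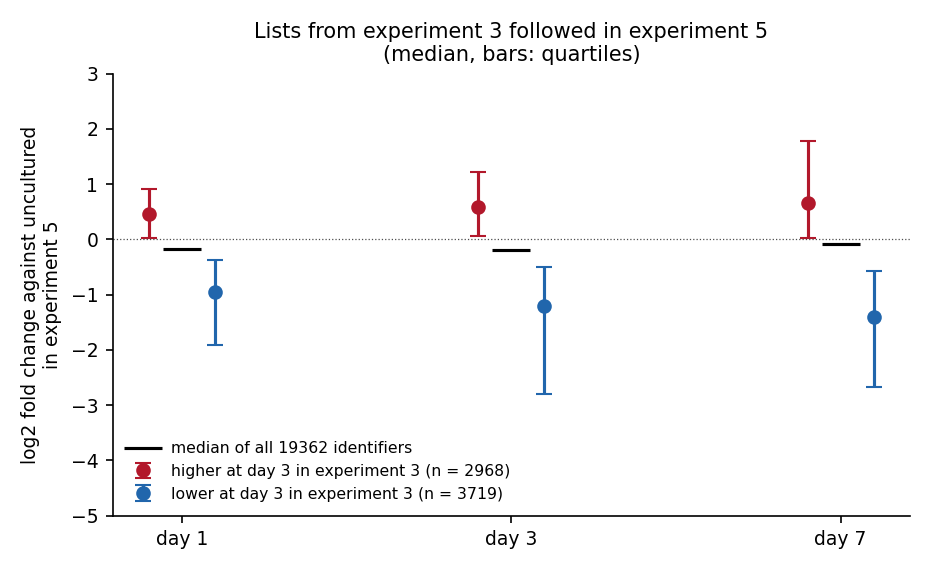
Median log2 fold change against uncultured cells at days 1, 3 and 7 of the U-bottom course of experiment 5 (points; bars from the lower to the upper quartile) for identifiers called higher (n = 2968) or lower (n = 3719) at day 3 of the separate U-bottom course of experiment 3, with the median of all 19362 identifiers as a black line. The lower list goes from -0.95 to -1.41 and the higher list from 0.46 to 0.66.

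Across identifiers of at least 10 CPM, 5900 in number, the log2 fold changes of the 2 U-bottom courses had a Pearson correlation of 0.663 at day 1 (Spearman 0.647), 0.667 at day 3 (0.670) and 0.489 for the step between them (0.468). Over all 19362 the values were 0.416 (0.470), 0.475 (0.493) and 0.127 (0.193). These describe identifiers within a few libraries and carry no test.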

How the data were processed

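The authors deposited whole counts per identifier for experiment 5 and estimated counts for experiment 3, without normalization, per the labels and the values. The submitters' processing notes list kallisto 0.46.2 and R 4.0.5. The transcriptome, and any filters, were not given in the sources used here. Per the labels, cDNA was made with template switching and PCR and fragmented with Tn5 transposase. They mention no molecular identifier, so floors cover counting error only.

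In R 4.3.3, counts (estimated counts after rounding) passed edgeR 4.0.16's default filter and TMM scaling, and all 10 groups and 30 libraries of experiment 5 were fitted together with 1 mean per group. Experiment 3 was fitted apart. The quasi-likelihood F test was two-sided, and standard errors (SE) were taken as the size of the log2 fold change over the root of its F. DESeq2 1.42.0, RLE size factors, other filters, fewer groups, a replicate block and leaving out each library were alternatives. The fits were tested on simulated data.

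Named identifiers were, per comparison, the 2 largest rises and the 2 largest falls on the log2 scale among calls of at least 10 CPM on average with no overlap between groups and a call kept without each library. No identifier met the last condition for the day 1 contrast, where it was dropped. The abundant identifiers and all calls of counts up to 5 were added. The members and lists were chosen with earlier results of these data known, and the set of 542 identifiers and its uses after its values were seen. Gene lists of pathways and cell types matched 0 identifiers, since no names are given, and were not used. The tables of the other experiments were not used here.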

Additional observations from a re-analysis of the deposited data

Results flagged for a closer look

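The time steps of U-bottom plates without extract and of the other cultures of experiment 5 were compared by a test of the difference itself. Against flat plates, 1 identifier differed in its step from day 1 to day 3 and 4 in their step from day 3 to day 7. Against U-bottom plates with extract, 5 differed in the earlier step and 462 in the later one. The 58 of these 462 with a more negative step without extract had a median log2 change of -0.74 without extract, where 16 were called lower, and of 1.97 with extract, where 44 were called higher. The identifiers behind the 3 small counts are named in the report, and most of them had a group with 0 counts in all its libraries.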

How the results depend on the processing

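Counts of calls moved by more than 1.5 times under these settings. Without a low-count filter edgeR called 465 at day 1, 479 between days 1 and 3, 1669 between days 3 and 7 and 108 for the day 1 contrast; for the steps against flat plates it called 107 and 45, and against extract 187 and 697, the earlier step first. DESeq2 called 694, 2091 and 4619 at days 1, 3 and 7, 711 and 3096 for the steps, 241 for the day 1 contrast, 267 and 240 against flat plates, 279 and 1048 against extract and 1453 for the step of experiment 3. With only the groups compared, days 1, 3 and 7 gave 982, 2220 and 4959. With only the 4 groups of the course, day 1 gave 340 and the day 1 contrast 4, and without the day 7 libraries they gave 395 and 28. With only identifiers of at least 10 CPM, day 7 gave 1916. RLE size factors gave 2 for the earlier step against flat plates and, against extract, 3 for the earlier and 252 for the later step. Leaving out 1 library at a time gave 61 to 240 calls at day 1, 544 to 749 at day 3, 1764 to 2413 at day 7, 16 to 86 and 622 to 1027 for the steps, 5 to 16 for the day 1 contrast, 0 to 4 and 1 to 5 against flat plates, 0 to 7 and 242 to 848 against extract, 2245 to 3321 for any difference, and 421 to 1098 for the step of experiment 3. Each such fit has fewer libraries. The cause of the other moves was not tested. The number of identifiers holding 50% of the remaining counts differed from uncultured cells by -107 and by -81.3 with only the most abundant identifier set aside (exact permutation p = 0.00455). Without the 542 identifiers higher at day 7, an alternative chosen after seeing the data, the difference was 3.22. These 542 were chosen for being high at day 7, so this turn of direction is built into the choice and carries no test. Of 204 alternatives for 22 results on named identifiers, 197 kept direction and call, 7 lost the call and 0 reversed. Replicate numbers did not pair the libraries: deviations of same-numbered libraries correlated at -0.0737 to 0.0819 over 18 pairs of libraries in experiment 5 and at -0.224 to 0.145 over 9 in experiment 3. A replicate block gave 229, 910 and 2801 calls at days 1, 3 and 7, 131 and 1063 for the steps and 3 for the earlier step against extract. Detection was compared at 3333661 counts per library, the lowest total, so identifiers scarcer than that depth shows are not counted.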
